A study of Rattus norvegicus with 10 samples.

Results

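The genes Vegfa, Hif1a, Slc2a1, Adm, Ldha, Bnip3, Hk2 and Pfkfb3, which respond to low oxygen or serve glycolysis in many tissues, were followed through 10 RNA-seq libraries of rat gastric mucosa. They are 8 of the 32623 genes counted in every library, taken by their Ensembl identifiers and kept because each lay on the chromosome given for its symbol. All 8 were among the 16346 genes left by the filter on low counts. The animals were Sprague Dawley rats dosed orally with non-steroidal anti-inflammatory drugs (NSAIDs), a class that blocks cyclooxygenases. There were 5 groups of 2 libraries. Diclofenac was given at 75 mg/kg, aspirin at 400 mg/kg and indomethacin at 48 mg/kg, and mucosa was taken 4 h later. In the last treated group, indomethacin at 48 mg/kg followed 30 min after an intraperitoneal dose of 40 mg/kg honokiol, which is a magnolia lignan. The 0.5 h on its time label matches this interval and was taken to mean it, so sampling at 4 h is an assumption for this group, on which both honokiol comparisons rest. Control libraries carry no treatment label, and no group with vehicle or with honokiol alone was analysed here.

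Cells short of oxygen stabilise the protein HIF-1α, encoded by Hif1a, which is otherwise hydroxylated and degraded. Stable HIF-1α pairs with ARNT and switches on genes for blood vessel growth, glucose uptake and glycolysis, so oxygen controls it mainly through the protein and less through its mRNA. NSAIDs injure the stomach lining in part by lowering prostaglandins, which maintain mucosal blood flow. The target genes also answer to inflammatory and growth signals, so their mRNA is not a measure of oxygen.

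Library totals ran from 23892226 to 44977459 counts, and a member held between 18 and 8066 counts in a library. Mitochondrial features and single-exon features of at most 350 nt made up 43.3% to 61% of the total of a library. Values are given as TMM-scaled CPM, which are counts relative to library size after trimmed-mean scaling between libraries, and a gene was called at an edgeR adjusted p under 0.05. Libraries within groups were not alike in sex-linked reads. Both honokiol libraries, indomethacin replicate 1 and control replicate 1 had from 2733 to 4438 counts over 7 features of the Y chromosome, and the other 6 libraries at most 47. Indomethacin and control thus each mix libraries with and without Y reads, both aspirin and both diclofenac libraries lack them, and both honokiol libraries have them. The labels do not state that the libraries of a group come from separate animals, so each p-value reflects library-to-library spread. Both indomethacin libraries and both control libraries differ in Y reads and so are not repeats of 1 sample, and for the other 3 groups the spread may be technical. The labelled epithelial cell type could not be set against marker genes, because the identifiers in the files were not matched to symbols here.

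**Figure D1:**
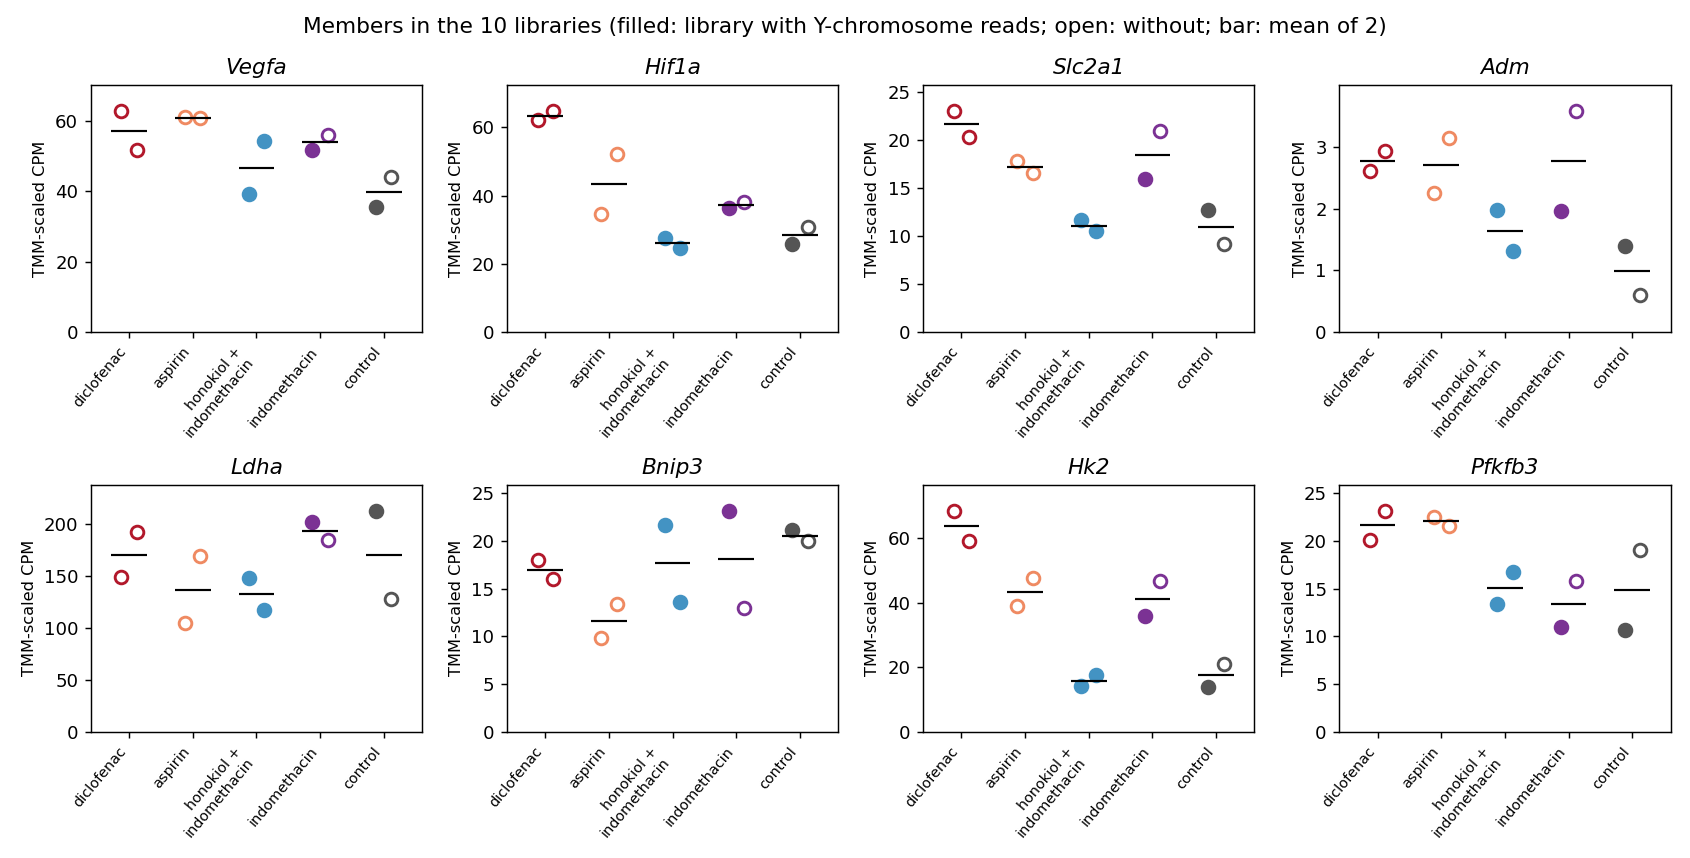
TMM-scaled CPM (vertical axes, linear from 0) of each member in the 10 libraries, by group (horizontal axes). Each point is a library, filled where it holds Y-chromosome reads, and each bar is the mean of 2 libraries. Hk2 lies between 35.9 and 68.3 CPM in the 6 libraries given an NSAID alone and between 13.9 and 21.1 CPM in the honokiol and control libraries.

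The members differed widely in level. Per kb of exon, Ldha was the most abundant in control mucosa at 106 ± 37.3 CPM per kb (SD, n = 2), above 97.9% of the tested genes. Ldha encodes the muscle-type subunit of lactate dehydrogenase, which turns pyruvate into lactate. Bnip3 followed at 12.7 ± 0.505, Vegfa at 11.2 ± 1.73 and Hif1a at 7.13 ± 0.893 CPM per kb in control (SD, n = 2), with Bnip3 and Vegfa overlapping. Slc2a1 had 4.23 ± 0.949, Hk2 3.22 ± 0.935 and Pfkfb3 3.16 ± 1.25 CPM per kb in control, and the control libraries of these 3 overlapped. Adm was the scarcest at 0.718 ± 0.402 CPM per kb in control, above 25.6% of tested genes. Over all 10 libraries the highest value was 5.94 times the lowest for Adm, 4.92 times for Hk2 and 1.77 times for Vegfa, with the other 5 members between 2.02 and 2.62 times.

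**Figure D2:**
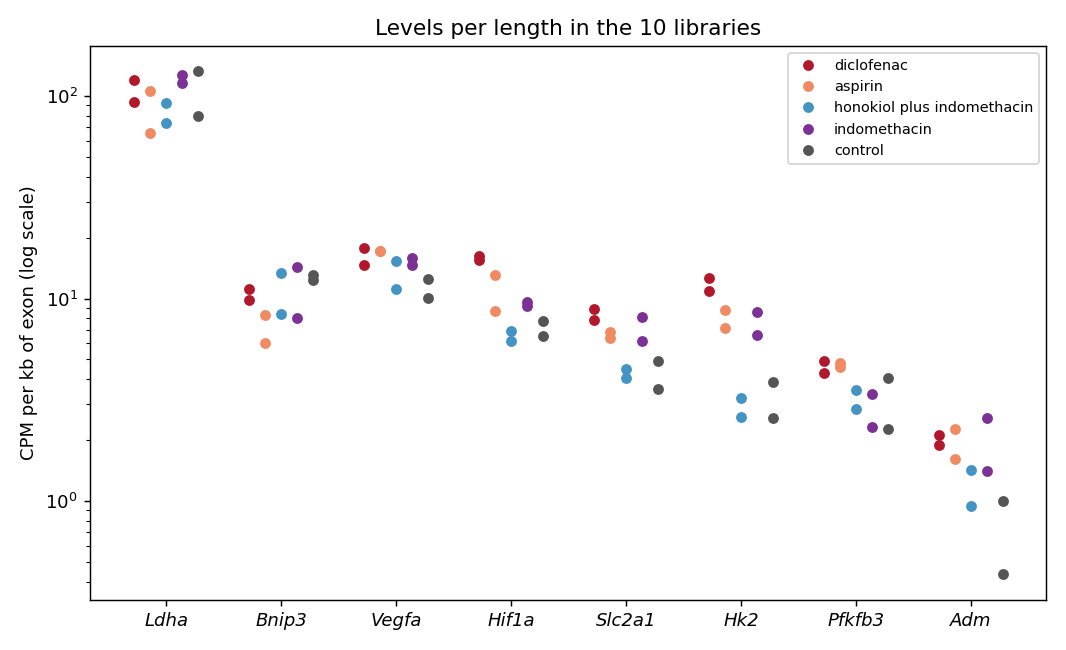
CPM per kb of exon on a log axis for each member (horizontal axis, ordered by the control mean), with each library as a point coloured by group. Ldha, at 65.6 to 133 CPM per kb, lies above every other member in all 10 libraries, and Adm reaches at most 2.57 CPM per kb.

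HIF binds DNA at a short core, ACGTG or GCGTG, and the promoters show which members carry it close to their start. RefSeq windows of 300 bases on GRCr8, from 250 bases before to 50 after the start, were found for all 8 members, with 2 windows for Vegfa, and were searched on both strands. Shown here are the member called in the most comparisons, Hk2, and 3 members with the core. Of these 3, Slc2a1 was called in 1 comparison and Ldha and Bnip3 in 0. Not shown are Hif1a and Pfkfb3, which also hold the core, and Adm and Vegfa, which lack it. Of those, Hif1a was called with diclofenac and Adm with aspirin. Whether calls go with the core was not tested. The windows are chr4:116841226-116841525 (minus strand) for Hk2, chr5:138002272-138002571 (plus strand) for Slc2a1, chr1:106507842-106508141 (plus strand) for Ldha and chr1:203154913-203155212 (minus strand) for Bnip3. They read 5′ to 3′ along the gene, with matches in capitals.
Hk2: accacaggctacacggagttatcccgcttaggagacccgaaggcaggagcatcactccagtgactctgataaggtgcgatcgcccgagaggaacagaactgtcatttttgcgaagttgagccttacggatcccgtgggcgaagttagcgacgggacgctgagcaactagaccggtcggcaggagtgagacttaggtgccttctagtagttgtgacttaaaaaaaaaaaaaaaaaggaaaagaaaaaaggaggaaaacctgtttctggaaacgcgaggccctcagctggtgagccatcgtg
Slc2a1: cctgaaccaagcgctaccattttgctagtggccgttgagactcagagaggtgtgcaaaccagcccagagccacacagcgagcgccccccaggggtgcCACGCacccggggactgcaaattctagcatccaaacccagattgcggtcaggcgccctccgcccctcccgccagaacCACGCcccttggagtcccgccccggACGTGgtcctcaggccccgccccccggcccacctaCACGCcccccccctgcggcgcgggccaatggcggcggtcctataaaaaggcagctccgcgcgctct
Ldha: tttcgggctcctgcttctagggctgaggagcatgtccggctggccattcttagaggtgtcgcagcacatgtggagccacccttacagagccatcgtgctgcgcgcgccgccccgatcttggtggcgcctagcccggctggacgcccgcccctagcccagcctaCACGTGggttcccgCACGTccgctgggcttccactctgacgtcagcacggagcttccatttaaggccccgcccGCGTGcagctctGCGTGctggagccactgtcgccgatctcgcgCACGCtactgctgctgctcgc
Bnip3: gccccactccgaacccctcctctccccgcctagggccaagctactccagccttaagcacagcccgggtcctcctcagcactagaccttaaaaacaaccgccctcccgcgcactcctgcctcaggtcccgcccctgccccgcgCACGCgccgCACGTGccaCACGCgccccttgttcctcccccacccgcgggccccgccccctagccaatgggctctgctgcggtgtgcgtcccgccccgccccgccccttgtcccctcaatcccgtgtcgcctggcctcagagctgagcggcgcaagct
Ldha held 6 matches, Slc2a1 and Bnip3 4 each, Hif1a 3 and Pfkfb3 2, while Hk2, Adm and both Vegfa windows held 0. The palindrome CACGTG counts on both strands, and it occurs in the windows of Ldha, Bnip3, Hif1a and Pfkfb3. Of 33469 RefSeq promoter windows of this length, 41.6% held either core, 19.3% ACGTG and 29.7% GCGTG. A match is a run of letters and not a bound site, and a window without one says nothing of sites farther away.

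Against control, 3 of the 8 members were called with diclofenac, 2 with aspirin and 1 with indomethacin, and all of these calls were higher. Of all 16346 tested genes, 4.76% were called higher with diclofenac, 9.5% with aspirin and 0.752% with indomethacin, while 3.11%, 8.26% and 0.0245% were called lower. In either direction the shares were 7.87%, 17.8% and 0.777%. The members called were Hk2, Hif1a and Slc2a1 with diclofenac, Hk2 and Adm with aspirin, and Hk2 with indomethacin. Vegfa, Pfkfb3, Ldha and Bnip3 were not called with any of the 3 drugs. The comparisons share the control libraries. For single drugs, the share of all genes with both drug libraries above or below both controls was not taken. In the pairs of groups where it was taken, it was 18.3% to 25.1% in each direction. In bulk tissue, a change in the share of a cell type and a change in RNA per cell cannot be told apart.

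Hk2 encodes hexokinase 2, which phosphorylates glucose at the entry to glycolysis and can sit on the outer mitochondrial membrane. It is ENSRNOG00000006116 in the files and lies on chromosome 4 from 113559427 to 113610243 on the minus strand, with 18 exons listed. Its level was 68.3 and 59.2 CPM with diclofenac, 39.0 and 47.7 CPM with aspirin and 35.9 and 46.5 CPM with indomethacin, against 13.9 and 21.1 CPM in control. Every library given an NSAID alone was above both controls. The log2 fold change was 1.87 ± 0.25 with diclofenac, 1.31 ± 0.25 with aspirin and 1.24 ± 0.25 with indomethacin (SE, edgeR adjusted p = 0.0027, 0.0099 and 0.046), that is 3.65-fold, 2.48-fold and 2.36-fold. Hk2 was thereby one of 106 genes, 0.648% of those tested, called higher with all 3 drugs. Its call with diclofenac held in all 18 alternative settings. With aspirin it was lost only without control replicate 1, at a log2 fold change of 1.08 (edgeR adjusted p = 0.060, range over alternatives 9.6e-06 to 0.060). With indomethacin it held in 11 of 18 (edgeR adjusted p from 7.8e-05 to 0.34). There it was lost with RLE scaling, at 1.23, and on omission of any 1 library of the control, indomethacin and honokiol groups, at 0.99 without control replicate 1 to 1.58 without control replicate 2. Within libraries without Y reads the log2 ratio of mean CPM was 1.597 with diclofenac, 1.04 with aspirin and 1.14 with indomethacin, each against 1 control. Within those with Y reads it was 1.37 for the indomethacin library against the control library. A term for Y reads left Hk2 called with all 3 drugs. This term rests on control and indomethacin, the groups that mix libraries with and without Y reads. There it coincides with the replicate number, and for diclofenac and aspirin it is carried over from those groups.

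Slc2a1 (ENSRNOG00000007284) encodes GLUT1, a basal glucose transporter of the plasma membrane, and lies on chromosome 5 from 138154673 to 138182897 on the plus strand (12 exons). It had 23.0 and 20.4 CPM with diclofenac, 17.8 and 16.5 CPM with aspirin and 16.0 and 21.0 CPM with indomethacin, against 12.7 and 9.22 CPM in control. All 6 drug libraries again exceeded both controls. The log2 fold change was 0.98 ± 0.22 with diclofenac, which was called, and 0.65 ± 0.22 with aspirin and 0.75 ± 0.22 with indomethacin, which were not (SE, edgeR adjusted p = 0.022, 0.058 and 0.18). The diclofenac call held in 13 of 18 alternatives (edgeR adjusted p from 0.0013 to 0.10). It was lost without control replicate 2 and without either diclofenac library, at log2 fold changes of 0.80, 0.92 and 1.07. It was also lost with a term for Y reads at 0.997 ± 0.26, and with the 2 groups fitted alone at 1.02 ± 0.23 (SE, edgeR adjusted p = 0.072 and 0.054), where the size did not shrink. Within libraries without Y reads the log2 ratio was 1.23 with diclofenac, 0.90 with aspirin and 1.19 with indomethacin. Between the libraries with Y reads it was 0.33 for indomethacin against control. With aspirin Slc2a1 was called without the low-count filter, with a stricter one, and without mitochondrial and short single-exon features.

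Pfkfb3 (ENSRNOG00000018911) encodes an enzyme that makes and degrades a fructose bisphosphate which activates glycolysis, and lies on chromosome 17 from 70684134 to 70713726 on the plus strand (23 exons). It had 20.1 and 23.1 CPM with diclofenac, 22.6 and 21.6 CPM with aspirin and 10.99 and 15.8 CPM with indomethacin, against 10.7 and 19.1 CPM in control. Diclofenac and aspirin libraries were above both controls, indomethacin libraries lay within the control range, and the controls differed 1.78-fold. The share of all genes above both controls with a single drug was not taken. The log2 fold change was 0.54 ± 0.27 with diclofenac, 0.57 ± 0.27 with aspirin and -0.15 ± 0.27 with indomethacin (SE, edgeR adjusted p = 0.23, 0.15 and 0.90). Without control replicate 2, the higher control, Pfkfb3 was called with diclofenac at 1.04 and with aspirin at 1.08 (edgeR adjusted p = 0.048 and 0.034, ranges over alternatives 0.048 to 0.73 and 0.034 to 0.58). With indomethacin the log2 fold change was then 0.34. Without control replicate 1 the values were 0.21 with diclofenac, 0.25 with aspirin and -0.49 with indomethacin. A term for Y reads gave 0.25 with diclofenac and 0.28 with aspirin. Within libraries without Y reads the log2 ratio was 0.18 with diclofenac, 0.21 with aspirin and -0.27 with indomethacin, and with Y reads it was 0.04 for indomethacin.

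Ldha (ENSRNOG00000013009), on chromosome 1 from 102900286 to 102909707 on the plus strand (8 exons), was called in 0 of the 8 comparisons made by edgeR. It had 149 and 192 CPM with diclofenac, 105 and 169 CPM with aspirin and 203 and 185 CPM with indomethacin, against 213 and 128 CPM in control. Of the 6 drug libraries, aspirin replicate 1 lay below both controls and the other 5 lay between them. The log2 fold change was 0.00 ± 0.31 with diclofenac, -0.31 ± 0.31 with aspirin and 0.19 ± 0.31 with indomethacin (SE, edgeR adjusted p = 0.999, 0.48 and 0.89). Their 95% intervals together ran from -0.99 to 0.86. The controls differed 1.66-fold. With aspirin, leaving out control replicate 1 gave 0.13 and leaving out control replicate 2 gave -0.60. Leaving out aspirin replicate 1 gave -0.01, leaving out aspirin replicate 2 gave -0.71, and a term for Y reads gave -0.06. Reads shared with near-identical copies of Ldha cannot be traced in these counts.

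Hif1a (ENSRNOG00000008292) lies on chromosome 6 from 96810907 to 96856052 on the plus strand (19 exons). Its mRNA stood at 62.1 and 64.7 CPM with diclofenac, 34.7 and 52.2 CPM with aspirin and 36.4 and 38.2 CPM with indomethacin, against 25.9 and 30.9 CPM in control. The drug and control libraries did not overlap in any of the 3 comparisons, and the aspirin libraries were the farthest apart. Diclofenac gave a log2 fold change of 1.158 ± 0.22, a 2.23-fold rise, whereas the values were 0.61 ± 0.22 with aspirin and 0.39 ± 0.22 with indomethacin (SE, edgeR adjusted p = 0.013, 0.071 and 0.62). The diclofenac call held in 15 of 18 alternatives (edgeR adjusted p from 0.00014 to 0.082). It was lost without control replicate 1 at 1.07, without diclofenac replicate 2 at 1.13, and with a term for Y reads at 1.08. With aspirin the log2 fold change was 0.28 without aspirin replicate 2 and 0.88 without aspirin replicate 1. Within libraries without Y reads the log2 ratio was 1.04 with diclofenac, 0.49 with aspirin and 0.30 with indomethacin, and with Y reads it was 0.49 for indomethacin.

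Vegfa (ENSRNOG00000019598) encodes vascular endothelial growth factor A, which acts on receptors of endothelial cells, and lies on chromosome 9 from 17340341 to 17355681 on the plus strand (10 exons). It had 62.7 and 51.8 CPM with diclofenac, 61.2 and 60.8 CPM with aspirin and 51.9 and 56.2 CPM with indomethacin, against 35.5 and 44.2 CPM in control. No drug library overlapped the controls, but the differences were small. The log2 fold change was 0.52 ± 0.22 with diclofenac, 0.62 ± 0.22 with aspirin and 0.44 ± 0.22 with indomethacin, none of them called (SE, edgeR adjusted p = 0.15, 0.069 and 0.56). With aspirin the 95% interval ran from 0.14 to 1.09 on the log2 scale, and DESeq2 called it (adjusted p = 0.049, range over alternatives 0.049 to 0.25). Within libraries without Y reads the log2 ratio was 0.38 with diclofenac, 0.47 with aspirin and 0.35 with indomethacin, and with Y reads it was 0.55 for indomethacin.

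Adm (ENSRNOG00000027030) encodes the precursor of adrenomedullin, a peptide that widens blood vessels, and lies on chromosome 1 from 175445088 to 175447259 on the plus strand (4 exons). Its counts were low, at 115 and 123 with diclofenac, 61 and 133 with aspirin and 70 and 139 with indomethacin, against 44 and 18 in control. As CPM these were 2.61 and 2.93 with diclofenac, 2.24 and 3.15 with aspirin and 1.95 and 3.57 with indomethacin, against 1.39 (exact 95% Poisson interval 1.01 to 1.87) and 0.601 (0.356 to 0.95) in control. Such intervals cover counting error only. The drug libraries all exceeded both controls, yet the controls themselves differed 2.31-fold. The log2 fold changes were close, at 1.47 ± 0.43 with diclofenac, 1.44 ± 0.44 with aspirin and 1.47 ± 0.43 with indomethacin, and only that with aspirin was called (SE, edgeR adjusted p = 0.060, 0.043 and 0.20). The aspirin call held in 10 of 18 alternatives (edgeR adjusted p from 0.0012 to 0.16), and its log2 fold change was 2.20 without control replicate 1 and 0.99 without control replicate 2, neither of them called. A term for Y reads (1.45) and the replicate block (1.43) also ended the call (edgeR adjusted p = 0.13 and 0.063), as did leaving out either aspirin library, honokiol replicate 1 or diclofenac replicate 2. With diclofenac Adm was called by DESeq2 and without the low-count filter, and with indomethacin without that filter. Without control replicate 1 the log2 fold change was 2.23 with diclofenac and 2.22 with indomethacin, and without indomethacin replicate 2 it was 0.97 with indomethacin. Against the control without Y reads the log2 ratio was 2.20 with diclofenac, 2.17 with aspirin and 2.57 with indomethacin, while between the indomethacin and control libraries with Y reads it was 0.49.

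Bnip3 (ENSRNOG00000017243) encodes a protein of the outer mitochondrial membrane that takes part in the removal of mitochondria by autophagy, and lies on chromosome 1 from 211248098 to 211265282 on the minus strand (8 exons). Unlike the members above it was lower in mean with every drug, although none of the differences was called. It had 18.0 and 16.0 CPM with diclofenac, 9.79 and 13.4 CPM with aspirin and 23.1 and 12.998 CPM with indomethacin, against 21.1 and 19.9 CPM in control. Diclofenac and aspirin libraries lay below both controls, and the indomethacin libraries lay on either side of them. The share of all genes below both controls with a single drug was not taken. The log2 fold change was -0.27 ± 0.29 with diclofenac, -0.82 ± 0.30 with aspirin and -0.19 ± 0.29 with indomethacin (SE, edgeR adjusted p = 0.59, 0.072 and 0.88). With aspirin it was called when no filter on low counts was used (edgeR adjusted p = 0.013, range over alternatives 0.013 to 0.36). Within libraries without Y reads the log2 ratio was -0.23 with diclofenac, -0.78 with aspirin and -0.62 with indomethacin, and with Y reads it was 0.13 for indomethacin.

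Taking the 6 libraries given an NSAID alone together, Vegfa, Hif1a, Slc2a1, Adm and Hk2 were above both controls in every one. That was 5 of 8 members, where 12.4% of all tested genes had all 6 libraries above both controls. All 6 are held against the same controls. The members were chosen with earlier results of these data known, so their contrast with all genes, here and in the medians below, is descriptive only. Bnip3 was below both controls in 5 of the 6 libraries and above both in 1, and Pfkfb3 was above both in 4. The share of all genes with such counts was not taken, and neither gene was called. The median log2 fold change over the 8 members was 0.76 with diclofenac, 0.61 with aspirin and 0.42 with indomethacin, against -0.0079, -0.0011 and -0.016 over all tested genes.

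**Figure D3:**
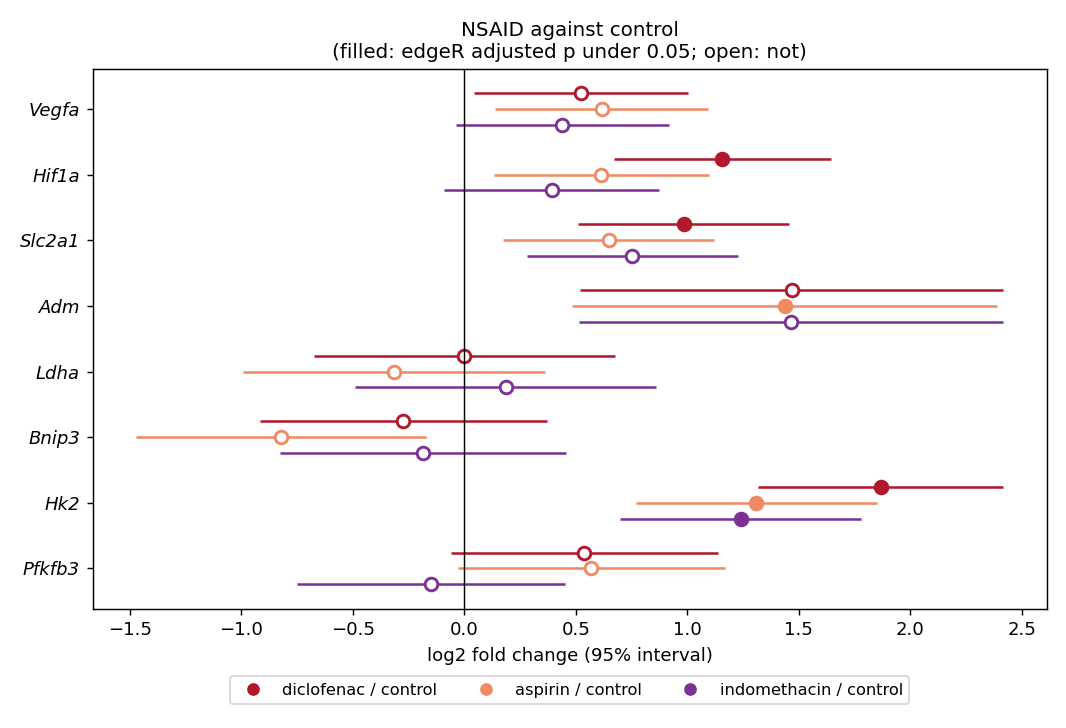
Log2 fold change against control (horizontal axis) for each member (vertical axis) with diclofenac, aspirin and indomethacin; bars are 95% intervals of the edgeR fit and filled points have an edgeR adjusted p under 0.05. Hk2 is filled with all 3 drugs, from 1.24 to 1.87, and Bnip3 lies below 0 with all 3, from -0.82 to -0.19.

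The 3 drugs were then set against one another at doses that differ. None of the 8 members was called in any of the 3 pairs, by edgeR or by DESeq2, where edgeR called 0.0184% of all genes between indomethacin and diclofenac, 0.0184% between indomethacin and aspirin and 0% between diclofenac and aspirin. At an unadjusted p under 0.05 stood 3 members, 1 member and 2 members in these pairs, and 11.9%, 20.1% and 5.21% of all genes. Between indomethacin and diclofenac, Hif1a had a log2 difference of -0.77 ± 0.22, Pfkfb3 of -0.69 ± 0.27 and Hk2 of -0.63 ± 0.24 (SE, edgeR adjusted p = 0.25, 0.37 and 0.36), and both indomethacin libraries were below both diclofenac libraries for these 3 genes, as they were for 23.5% of all tested genes (25.1% were above). A term for Y reads, which indomethacin replicate 1 holds and the diclofenac and aspirin libraries lack, gave -0.37 for Pfkfb3 and -0.40 for Hk2, and without indomethacin replicate 1 Pfkfb3 stood at -0.45. The other 5 members lay between -0.23 and 0.19. Between indomethacin and aspirin, Pfkfb3 had a difference of -0.72 ± 0.27 (SE, edgeR adjusted p = 0.20), which a term for Y reads made -0.40, and the other 7 lay between -0.22 and 0.64. Between diclofenac and aspirin, Hk2 had 0.56 ± 0.24 and Hif1a 0.54 ± 0.22 (SE, edgeR adjusted p = 0.78 for both), and the other 6 lay between -0.09 and 0.55. Hif1a was at 0.28 there without aspirin replicate 1 and at 0.88 without aspirin replicate 2. These misses do not show that the drugs act alike. For Hk2 the 95% interval of diclofenac over aspirin ran from 0.03 to 1.09 on the log2 scale.

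Honokiol before indomethacin was compared with indomethacin, a pretreatment that the labels describe as protective. Of the 8 members, 1 was called, and it was lower, beside 0.3% of all tested genes called lower. That member was Hk2, at 14.1 and 17.6 CPM with honokiol plus indomethacin, against 35.9 and 46.5 CPM with indomethacin. The groups were far apart, with each honokiol library under 18 CPM. The log2 difference was -1.38 ± 0.25 (SE, edgeR adjusted p = 0.045), 0.385 times the level with indomethacin. Both indomethacin libraries are those set against control above, so the rise there and the fall here are not independent. The call held in 12 of 18 alternatives (edgeR adjusted p from 8.2e-06 to 0.41). It was lost with the stricter low-count filter at -1.37, with a term for Y reads at -1.13, and without any 1 of the 4 libraries compared, at -1.57 to -1.18. Among libraries with Y reads, which include both honokiol libraries and 1 indomethacin library, the log2 ratio was -1.18.

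Slc2a1 had 11.7 and 10.5 CPM with honokiol plus indomethacin, against 16.0 and 21.0 CPM with indomethacin, a log2 difference of -0.74 ± 0.22 that was not called (SE, edgeR adjusted p = 0.25). Hif1a had 27.6 and 24.7 CPM with honokiol plus indomethacin, against 36.4 and 38.2 CPM with indomethacin, a difference of -0.51 ± 0.22 that was not called either (SE, edgeR adjusted p = 0.49). Ldha had 148 and 117 CPM with honokiol plus indomethacin, against 203 and 185 CPM with indomethacin, at -0.55 ± 0.31 (SE, edgeR adjusted p = 0.64). For these 3 genes, as for Hk2, both honokiol libraries were below both indomethacin libraries, which held for 23.6% of all tested genes. Among the libraries with Y reads the log2 ratios of Slc2a1, Hif1a and Ldha were -0.53, -0.48 and -0.61, against 1 indomethacin library.

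The remaining members overlapped between honokiol plus indomethacin and indomethacin. Adm had 1.98 and 1.31 CPM with honokiol plus indomethacin, against 1.95 and 3.57 CPM with indomethacin, and a log2 difference of -0.75 ± 0.42. Vegfa had 39.3 and 54.2 CPM with honokiol plus indomethacin, against 51.9 and 56.2 CPM with indomethacin, and a difference of -0.21 ± 0.22. Bnip3 had 21.7 and 13.6 CPM with honokiol plus indomethacin, against 23.1 and 12.998 CPM with indomethacin, so that each group held a high and a low library. Pfkfb3 had 13.4 and 16.7 CPM with honokiol plus indomethacin, against 10.99 and 15.8 CPM with indomethacin. The log2 differences of these last 2 genes were -0.03 ± 0.29 and 0.17 ± 0.27 (SE, edgeR adjusted p from 0.64 to 0.98 over the 4 genes). Among the libraries with Y reads the log2 ratio was -0.25 for Adm, -0.15 for Vegfa, -0.39 for Bnip3 and 0.46 for Pfkfb3. Adm was at -1.13 without indomethacin replicate 1, -0.25 without indomethacin replicate 2 and -0.49 without honokiol replicate 2. A term for Y reads gave 0.53 for Pfkfb3, -0.21 for Bnip3 and -0.10 for Vegfa. Over all 8 members the median log2 difference was -0.53, against -0.02 over all tested genes.

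Honokiol plus indomethacin was also set against control. edgeR called 0 of the 8 members and 0% of all genes, with 0 members and 816 genes at an unadjusted p under 0.05, and DESeq2 called 0 members and 18 genes. Hk2 had 14.1 and 17.6 CPM with honokiol plus indomethacin, against 13.9 and 21.1 CPM in control, with a log2 fold change of -0.14 ± 0.25 and a 95% interval from -0.68 to 0.40. Slc2a1 stood at 0.02 ± 0.22, Hif1a at -0.12 ± 0.22 and Pfkfb3 at 0.02 ± 0.27 on the log2 scale (SE). Ldha stood at -0.36 ± 0.31, Vegfa at 0.23 ± 0.22 and Bnip3 at -0.22 ± 0.29 (SE). Adm was the farthest from 0, at 0.72 ± 0.45 (SE, edgeR adjusted p = 0.83). All 8 members overlapped between these groups, where 18.3% of all tested genes had both honokiol libraries above both controls and 19.4% below. Without control replicate 1 Adm stood at 1.46, without control replicate 2 at 0.25 and without honokiol replicate 1 at 0.39. Among the libraries with Y reads, against 1 control, the log2 ratio was 0.49 for Pfkfb3, 0.40 for Vegfa and 0.24 for Adm. It was 0.19 for Hk2, 0.01 for Hif1a, -0.20 for Slc2a1, -0.26 for Bnip3 and -0.68 for Ldha. With a term for Y reads Adm stood at 0.71, Pfkfb3 at 0.41, Vegfa at 0.35 and Hk2 at 0.13. Slc2a1 then stood at 0.006, Hif1a at -0.03, Bnip3 at -0.45 and Ldha at -0.54, and none was called. The comparison shares its honokiol libraries with the one before and its controls with the drug comparisons.

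**Figure D4:**
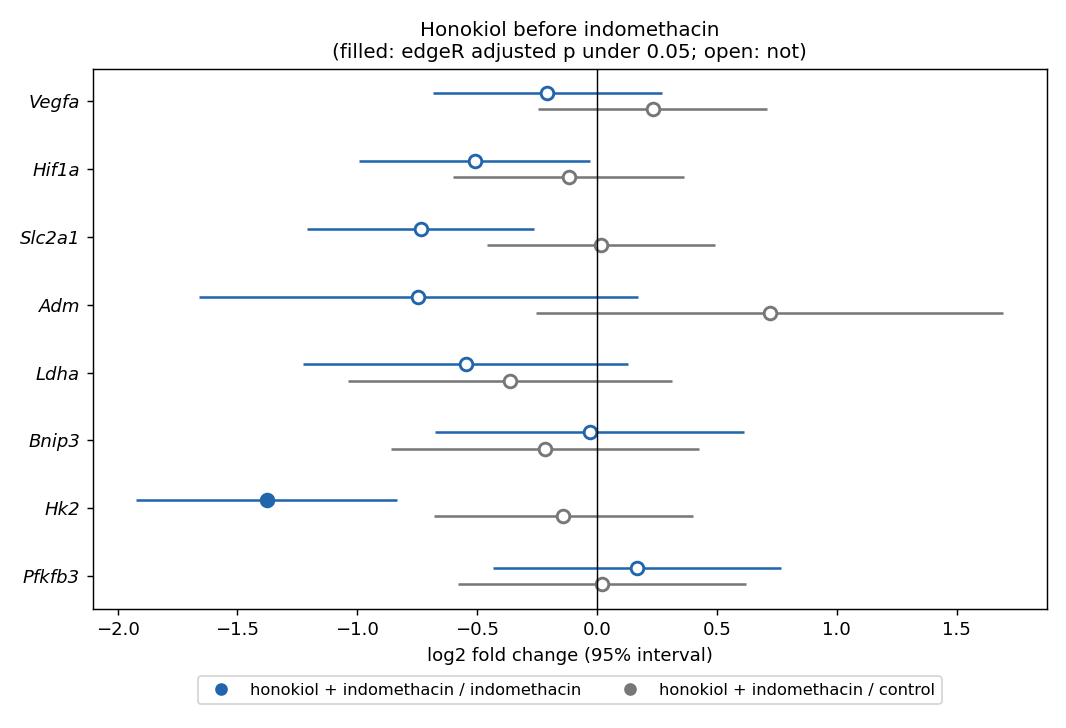
Log2 difference of honokiol plus indomethacin from indomethacin and from control (horizontal axis) for each member (vertical axis); bars are 95% intervals of the edgeR fit and filled points have an edgeR adjusted p under 0.05. Hk2 is the one filled point, at -1.38 against indomethacin, and stands at -0.14 against control.

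Ordered by group means, Hk2 was highest with diclofenac (63.8 ± 6.43 CPM), followed by aspirin (43.3 ± 6.13), and indomethacin (41.2 ± 7.49), and was lowest with honokiol plus indomethacin (15.9 ± 2.43), next to control (17.5 ± 5.08; SD, n = 2 each). Aspirin overlapped with indomethacin, and honokiol plus indomethacin with control, while diclofenac lay above aspirin and indomethacin above control in every library. Hif1a had the same order, at 63.4 ± 1.80 CPM with diclofenac, 43.4 ± 12.4 with aspirin, 37.3 ± 1.26 with indomethacin, 26.2 ± 2.07 with honokiol plus indomethacin and 28.4 ± 3.56 in control (SD, n = 2 each), with the same neighbours overlapping. Bnip3 ran otherwise, with aspirin lowest at 11.6 ± 2.53 CPM and control highest at 20.5 ± 0.818 CPM (SD, n = 2 each), and only aspirin stood clear of its neighbour. For Vegfa and Ldha every pair of neighbouring groups overlapped.

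The likeness of members was taken as the root mean square difference of their log2 CPM, each centred on its own mean, over the 10 libraries. This distance also depends on how much each gene varies, so it does not show only which genes move together. Vegfa and Pfkfb3 were the closest pair at 0.29, which is above the spread of Vegfa itself (0.27). Hif1a and Slc2a1 were next at 0.30. Ldha and Bnip3 were each other's nearest member, at 0.36. Hk2 lay nearest to Hif1a, at 0.42, and farthest from Bnip3, at 1.02, the largest of the 28 distances. The spread of Hk2 over the libraries, 0.81 on the same scale, exceeded that of 91.9% of tested genes, and that of Vegfa, 0.27, exceeded 30.0%. Genes outside the 8 were not named for likeness, because no identifier was matched to a symbol.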

How the data were processed

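The deposited files hold whole-number counts per gene, 1 library each, with the column layout that featureCounts writes, per the file headers. By the labels' protocols, ribosomal RNA was depleted and stranded paired-end libraries were made. The submitters' processing notes name cutadapt 1.16, HISAT2 2.1.0, featureCounts and DESeq2. How multiply aligned reads were counted, the strand setting and the genome build of the files are not given in the sources here, so copies of a gene may share reads. No listed feature overlapped a member. Coordinates and exon numbers are those of the files. Blank rows at the ends of the files were skipped. There was 1 in each control, indomethacin and honokiol file, and 2 in each aspirin and diclofenac file.

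Counts were fitted with edgeR 4.0.16 in R 4.3.3 (quasi-likelihood F test, TMM factors, filterByExpr with minimum count 10 and minimum total 15, robust moderation, no covariate beside group). A single fit took all 10 libraries, with 5 residual degrees of freedom, and Benjamini-Hochberg adjustment ran over 16346 genes. Standard errors are the log2 fold change divided by the square root of F. Fits were run on simulated counts with known fold changes, a smaller and a larger one, in 1 group. Direction was required to be right only for nearly all genes with the larger change. Size was required to be close only as a median for each change. The simulation held no difference in Y reads and does not vouch for the calls. The members, the gene lists and the tests were chosen with earlier results of these data known. By the rule for named genes all 8 members are described. The lists of pathway genes and cell type markers could not be applied, since the reference at hand held no Ensembl identifiers to match. Member symbols therefore rest on the definition of the set. All 8 symbols lie on the same chromosome in RefSeq GRCr8. Alternatives were RLE factors, no or a stricter low-count filter (at least 1 CPM and 10 counts in 2 libraries), DESeq2 1.42.0, the 2 groups alone, a replicate block, a term for Y reads (libraries over 1000 counts on Y features), omission of mitochondrial and single-exon features of at most 350 nt, and each library left out.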

Additional observations from a re-analysis of the deposited data

How the results depend on the processing

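Over 18 alternatives, 765 of the single-member values kept their direction and their side of the threshold. A further 30 lost a call, 10 gained one and 23 changed sign, all of these last uncalled. Between drugs, this tally holds only the members with an edgeR unadjusted p under 0.05 in the main fit. It leaves out the other members there, among them differences near 0, whose sign may change more easily. The number of members called against control with indomethacin (1) became 0 with RLE factors and 2 without the low-count filter. With diclofenac (3) it became 4 without the filter, 4 with DESeq2, 2 with the 2 groups alone and 1 with a term for Y reads. With aspirin (2) it became 4 without the filter, 1 with the replicate block and 1 with the Y term. It became 3 there with the stricter filter, with DESeq2, and without mitochondrial and short single-exon features. Between honokiol plus indomethacin and indomethacin (1) it became 0 with the stricter filter and 0 with the Y term. Leaving out 1 library gave 0 to 1 with indomethacin, 1 to 3 with diclofenac, 0 to 2 with aspirin and 0 to 1 between honokiol plus indomethacin and indomethacin, where a single remaining library is assumed to have the spread of the other groups. The cause was not tested.

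Log2 fold changes that changed sign when 1 library was left out ran as follows. Against control they were -0.12 to 0.61 for Ldha, -0.49 to 0.34 for Pfkfb3 and -0.63 to 0.17 for Bnip3 with indomethacin, -0.29 to 0.44 for Ldha with diclofenac, and -0.71 to 0.13 for Ldha with aspirin. For honokiol plus indomethacin against indomethacin they were -0.41 to 0.43 for Bnip3, -0.089 to 0.45 for Pfkfb3 and -0.46 to 0.00091 for Vegfa. For honokiol plus indomethacin against control they were -0.40 to 0.20 for Hk2, -0.67 to 0.059 for Ldha, -0.33 to 0.50 for Pfkfb3, -0.23 to 0.021 for Hif1a, -0.19 to 0.28 for Slc2a1, -0.0035 to 0.44 for Vegfa and -0.60 to 0.094 for Bnip3. With the Y term Hk2 stood there at 0.13.

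The replicate numbers of the titles gave no pairing that held over all groups. Across genes, the differences of replicate 2 from replicate 1 correlated between groups at -0.26 to 0.30, over 0.1 in 4 of 10 pairs of groups. These 4 were aspirin with diclofenac, and the pairs among control, indomethacin and honokiol plus indomethacin. Aspirin and diclofenac each correlated negatively with each of these last groups, at -0.26 to -0.10, and the cause was not tested. A replicate block is coded alike in all groups, so it cannot take up differences that run in opposite directions. The replicate block ended the call of Adm with aspirin, moved the count of all genes called by under 1.5 times in each comparison, and changed no other call of a member. The numbers of all genes called moved more. With indomethacin 127 became 834 without the filter, 385 with DESeq2 and 262 with the 2 groups alone. With diclofenac 1286 became 2650 without the filter, 527 with the 2 groups alone and 383 with the Y term. With aspirin 2903 became 1759 with the 2 groups alone and 683 with the Y term. Between honokiol plus indomethacin and indomethacin 56 became 699, 243, 250 and 35 without the filter, with DESeq2, with the 2 groups alone and with the Y term. Leaving out 1 library gave 1 to 200 with indomethacin, 319 to 1434 with diclofenac, 462 to 3606 with aspirin and 0 to 118 between honokiol plus indomethacin and indomethacin. Without the filter 153 genes were called between honokiol plus indomethacin and control (0 with it), and 872, 1414 and 140 between indomethacin and diclofenac, indomethacin and aspirin, and diclofenac and aspirin. Leaving out 1 library gave up to 63, 570 and 27 in these pairs of drugs, and the 2 groups alone gave 60, 57 and 0. Between drugs DESeq2 called 159 and 454 genes for indomethacin against diclofenac and aspirin (edgeR 3 each) and 7 for diclofenac against aspirin (edgeR 0, with 852 at an unadjusted p under 0.05).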
